A study of Mus musculus with 20 samples.

Results

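MHC class I molecules and the machinery that loads them with peptide were described through 9 genes: the heavy chain genes H2-K1 and H2-D1, the class Ib heavy chain gene H2-M3, the light chain gene B2m, the peptide transporter genes Tap1 and Tap2, the tapasin gene Tapbp, and the immunoproteasome subunit genes Psmb8 and Psmb9. All probe sets annotated to exactly 1 of these symbols were taken, which gave 26 of the 44200 probe sets on the array. Another 3 probe sets that name a member together with a second gene were left out. Of the 26, 23 passed the filter on low signal in the cell lines and 22 in the bone marrow cells, and each of the 9 genes kept at least 1. The brightest probe set by mean level represents its gene below, and the others are given where they differ.

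The study measured transcripts in mouse pre-B cells on 20 arrays in 7 groups. All 5 groups of cell lines, controls included, carried the v-abl oncogene as their transforming gene and were treated for 48 hours with STI571 (imatinib), a blocker of the v-abl kinase, at 3 uM. RAG-2-deficient lines (n = 3) lack the recombinase that cuts antigen receptor genes and were the control, lines of wild type origin (n = 3) can both cut and rejoin, and Artemis-deficient lines (n = 3) cut but cannot open the hairpin ends. Artemis deficiency was combined with ATM deficiency in another group (n = 2, each on 2 arrays that were averaged) and with a dominant negative IkB, an inhibitor of NF-kB, in the last (n = 3, called IkB-DN lines here). Pre-B cells were also purified from the bone marrow of Artemis-deficient mice (n = 2) and of RAG-1-deficient mice (n = 2), the control there, and both kinds of mice carried an IgH transgene. The labels call these samples biological replicates and say no more on how they were kept apart, so p values measure the spread between these samples. Mouse strain, H2 haplotype, age, and the promoter that drives the dominant negative IkB were not given in the sources used here. Titles of the RAG-2-deficient lines contain the letters Bcl, which the labels do not explain, and the title of wild type replicate 3 contains the letters ATM although its source is given as wild type. The title of Artemis-deficient replicate 3 contains the letters INV and those of the Artemis- and ATM-deficient lines the letters CJ, which their sources do not explain either.

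Class I molecules show peptides from inside the cell to CD8 T cells. Immunoproteasome subunits cut proteins into such peptides, the Tap1 and Tap2 proteins carry them into the endoplasmic reticulum, tapasin holds the empty class I molecule at the transporter, and a heavy chain paired with beta-2 microglobulin, the product of B2m, takes the peptide to the surface. H2-M3 presents peptides with a formylated start, such as those of bacteria and mitochondria. These genes are known as targets of interferon, of the transactivator Nlrc5 and, for the heavy chains and B2m, of NF-kB. All members except B2m lie in the H2 region of mouse chromosome 17 or next to it, in the order Tapbp, H2-K1, Psmb9, Tap1, Psmb8, Tap2, H2-D1 and H2-M3, while B2m is on chromosome 2. The H2 region differs strongly between mouse strains, and H2-K1 and H2-D1 are near-identical over long stretches. Of their 13 probe sets, 11 carry the suffix _x_at, by which the array maker marks probes that can also bind other transcripts, so signals of H2-K1, H2-D1 and other class I genes cannot be fully told apart.

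Promoter sequences of the 3 heavy chain genes and B2m are shown because these genes are known NF-kB and interferon targets and because H2-K1, H2-D1 and B2m moved together across the lines. RefSeq windows on GRCm38.p6, each of 300 bases with 250 before and 50 after the gene start, were found for 8 of the 9 members. They are written 5′ to 3′ along the gene: H2-K1 at chr17:34000298-34000597 on the minus strand, H2-D1 at chr17:35262844-35263143, H2-M3 at chr17:37269984-37270283 and B2m at chr2:122147437-122147736, all 3 on the plus strand. Capitals mark matches, on either strand, to 4 searched motifs: the kappa B sequences GGGGATTCC and GGGACTTTC, and the cores GAAANNGAA and GAANNGAAA of an interferon-stimulated response element, where N is any base.
H2-K1: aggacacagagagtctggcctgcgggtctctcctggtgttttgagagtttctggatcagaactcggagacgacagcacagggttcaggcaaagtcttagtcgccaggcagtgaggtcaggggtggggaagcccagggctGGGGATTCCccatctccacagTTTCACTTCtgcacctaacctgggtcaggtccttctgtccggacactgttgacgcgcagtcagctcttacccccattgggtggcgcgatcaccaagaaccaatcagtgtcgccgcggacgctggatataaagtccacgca
H2-D1: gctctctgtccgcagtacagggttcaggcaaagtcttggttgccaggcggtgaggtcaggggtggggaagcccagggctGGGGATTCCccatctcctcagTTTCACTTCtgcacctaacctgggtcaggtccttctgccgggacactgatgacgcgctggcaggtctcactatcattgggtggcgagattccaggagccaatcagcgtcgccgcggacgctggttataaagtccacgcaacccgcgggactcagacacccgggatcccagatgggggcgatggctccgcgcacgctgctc
H2-M3: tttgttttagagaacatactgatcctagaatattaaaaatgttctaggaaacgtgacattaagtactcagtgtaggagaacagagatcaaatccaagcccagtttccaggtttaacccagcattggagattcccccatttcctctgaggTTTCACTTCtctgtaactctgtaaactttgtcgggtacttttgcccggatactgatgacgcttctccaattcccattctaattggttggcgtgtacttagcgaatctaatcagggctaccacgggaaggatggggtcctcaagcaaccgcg
B2m: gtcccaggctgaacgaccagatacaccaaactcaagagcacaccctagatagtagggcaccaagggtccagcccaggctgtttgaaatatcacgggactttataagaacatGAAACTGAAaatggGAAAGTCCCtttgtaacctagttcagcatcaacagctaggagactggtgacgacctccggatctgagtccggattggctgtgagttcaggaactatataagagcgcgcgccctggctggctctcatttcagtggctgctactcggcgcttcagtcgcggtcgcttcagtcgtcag
GGGGATTCC was searched as the kappa B site known from the class I enhancer itself, so its presence in class I heavy chain genes was fixed in advance. It was found in H2-K1, 111 bases before the start shown, and in H2-D1, 171 bases before it, and 0.25% of the 32851 promoters in the table hold it. In both genes the letters TTTCACTTC, which are GAANNGAAA on the other strand, follow it. They also stand in H2-M3, 101 bases before the start, and 7.52% of promoters hold this motif. GAANNGAAA was added to the search after the data were seen, so its matches here are a description only. The H2-K1 and H2-D1 windows share an unbroken run of 47 bases that includes GGGGATTCC, so these matches are no separate observations. Each shares a run of 11 with H2-M3. B2m held GGGACTTTC on the opposite strand, 125 bases before the start (0.353% of promoters), and GAAANNGAA 139 bases before it (8.56%). None of the 4 motifs was found in the windows of Tapbp, Tap1, Psmb8 and Psmb9, of which those of Tap1 and Psmb9 overlap by 275 bases because these genes start next to each other on opposite strands. A match is a description of letters and no evidence of a bound factor. The promoter of Tap2 is not shown.

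Levels below are log2 values of the signal plus a pseudocount (6 in the lines, 11 in the marrow), differences are on the same scale with their standard error (SE), and a probe set is called when limma's p, adjusted by Benjamini-Hochberg over all tested probe sets, is below 0.05. Levels were compared only within the lines or within the marrow, and never between probe sets. The median signal of an array ran from 26.8 to 27.7 for lines and from 46.9 to 47.8 for marrow, and the number of arrays limits the precision. All 11 pre-B cell markers on the array passed the filter in both sets. Correlations over probe sets between replicates were 0.902 to 0.947 in wild type, RAG-2-deficient, Artemis-deficient and Artemis- and ATM-deficient lines but 0.976 to 0.983 in IkB-DN lines, which may be cultures of the same line. If they are, their comparisons have p values that are too small, and those of the other line comparisons, which share the estimate of spread, may be too. In these bulk samples, fewer cells of a type and less RNA per cell cannot be told apart.

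Between technical arrays of the same sample, the tested member probe sets differed by a median of 0.083 and by at most 0.62. The representatives of H2-K1, H2-D1 and B2m varied little over the 14 line samples. The representative of H2-K1 (1425336_x_at) ranged over 0.39 between group means, with a pooled SD within groups of 0.06, that of H2-D1 (1425545_x_at) over 0.21 with an SD of 0.09, and that of B2m (1449289_a_at) over 0.19 with an SD of 0.03. Group means of the other tested probe sets ranged over 0.30 to 0.77 for H2-K1, 0.22 to 5.76 for H2-D1 and 0.15 for B2m. H2-M3 ranged over 1.45 with an SD of 0.28. The representatives of Tap2, Psmb8, Psmb9, Tap1 and Tapbp ranged over 0.39 to 0.61, with SDs of 0.17 to 0.39.

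**Figure D1:**
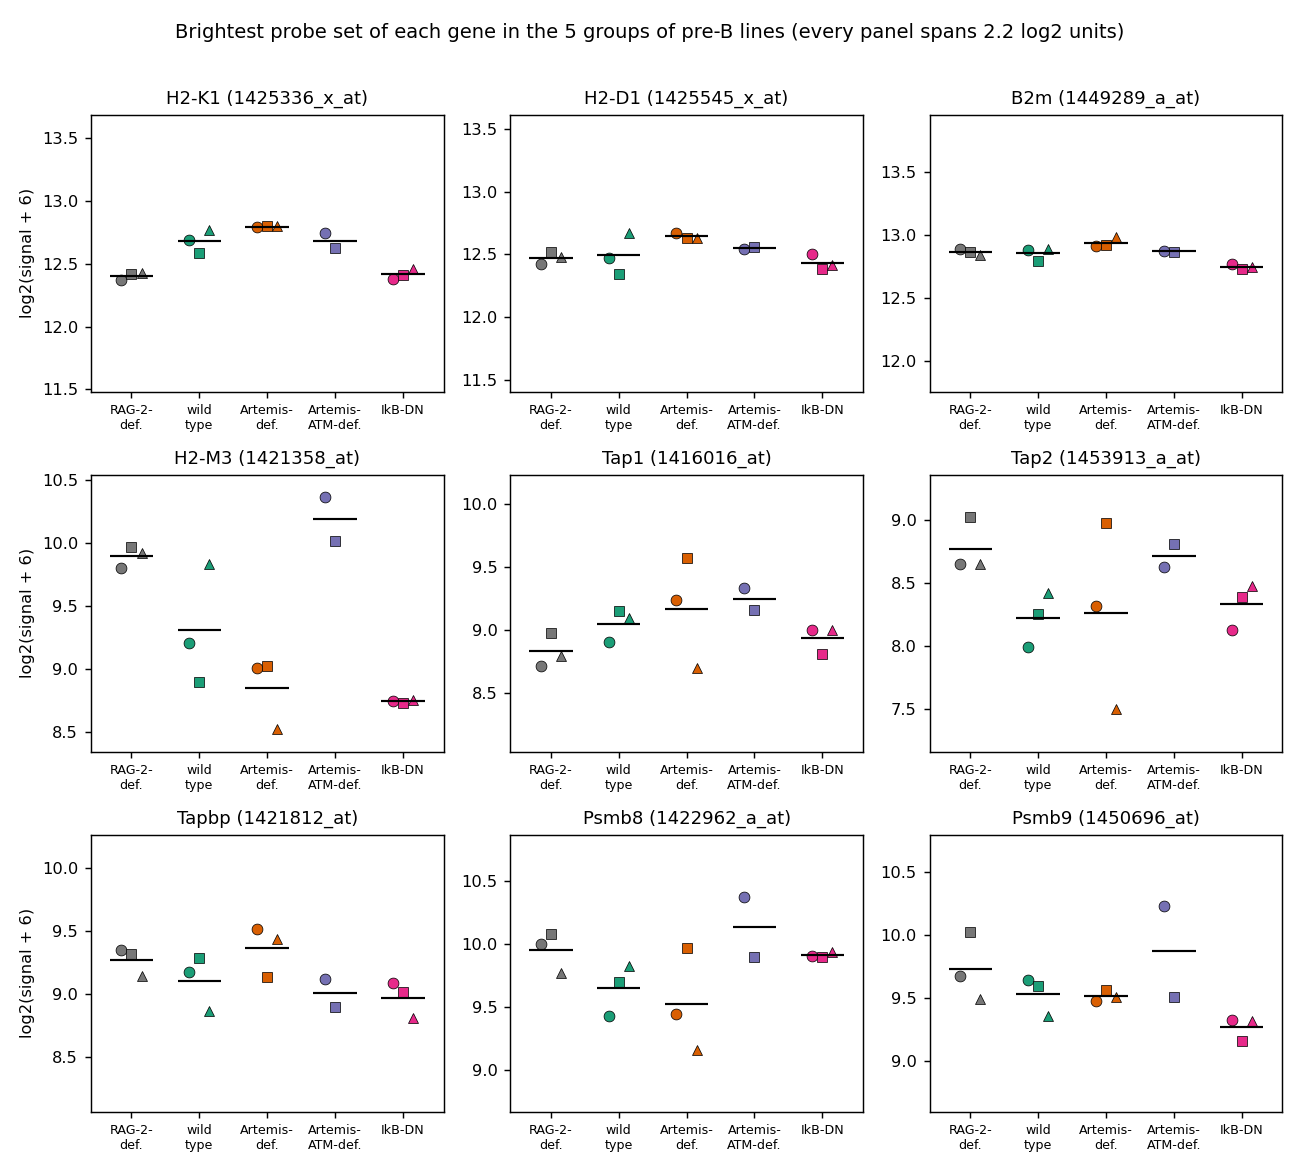
Level (log2 of signal plus 6, vertical axis) of the representative probe set of each gene in every line sample, by group on the horizontal axis; symbols tell replicates apart, bars are group means, and all panels span 2.2 log2 units. H2-K1 sat lowest in the RAG-2-deficient and IkB-DN lines, H2-M3 had its lowest group means in the Artemis-deficient and IkB-DN lines, and the transporter and immunoproteasome genes overlapped between most groups.

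Setting Artemis-deficient lines against RAG-2-deficient ones addresses the effect of RAG breaks left unrepaired. Among the class I genes H2-K1 rose and H2-M3 fell, 3 probe sets of H2-D1 fell by over 3 log2 units, and no call was made for B2m, Tap1, Tap2, Tapbp, Psmb8 or Psmb9. In all, 6 of 23 member probe sets were called, 2 higher and 4 lower, against 1.15% of all 21744 tested. The groups did not overlap for 13 of 23, 9 of them higher, against 18.4% of all tested. Of the 20 left without these 3 H2-D1 probe sets, 9 lay higher and 1 lower without overlap. The median change of the members was 0.07 and that of all tested probe sets -0.01.

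H2-K1, which encodes the K heavy chain, lay at 12.37, 12.42 and 12.42 in the RAG-2-deficient lines and at 12.79, 12.80 and 12.80 in the Artemis-deficient lines. Wild type lines lay at 12.69, 12.58 and 12.77, Artemis- and ATM-deficient lines at 12.74 and 12.62, and IkB-DN lines at 12.38, 12.41 and 12.46. Every Artemis-deficient sample was thus above every sample of the other 4 groups, and the RAG-2-deficient and IkB-DN samples overlapped at the low end. The rise over RAG-2-deficient lines was 0.39 ± 0.06 (SE, limma adjusted p = 0.00862, n = 3 and 3), or 1.31-fold, and it held whichever of the 6 samples was left out. The call ended without the filter on low signal, without the intensity trend in the fit, and with the gene's probe sets averaged (adjusted p up to 0.0915, change 0.34 to 0.40 over all alternatives).

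All 4 H2-K1 probe sets were higher in every Artemis-deficient than in every RAG-2-deficient sample. The second call was for 1427746_x_at, at 11.29, 11.40 and 11.41 in RAG-2-deficient and 11.84, 11.90 and 11.70 in Artemis-deficient lines, a rise of 0.44 ± 0.09 (adjusted p = 0.0394). That call was lost without any of 5 of the 6 samples; it remained only without Artemis-deficient replicate 3. The other probe sets, 1450534_x_at and 1451931_x_at, changed by 0.39 ± 0.12 and 0.19 ± 0.08 and were not called (adjusted p = 0.17 and 0.299). Over the 14 samples the 3 other probe sets correlated with the representative at r = 0.70 to 0.86; they share target sequence and samples.

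H2-D1, which encodes the D heavy chain, gave 2 kinds of reading. Its representative lay at 12.43, 12.52 and 12.48 in RAG-2-deficient, 12.48, 12.35 and 12.67 in wild type, 12.67, 12.63 and 12.63 in Artemis-deficient, 12.54 and 12.56 in Artemis- and ATM-deficient and 12.51, 12.39 and 12.41 in IkB-DN lines. The change in Artemis-deficient against RAG-2-deficient lines was 0.17 ± 0.07 and was not called (adjusted p = 0.346), although every Artemis-deficient sample lay above every RAG-2-deficient one. The other tested probe sets of this kind, 1451784_x_at, 1451683_x_at, 1426324_at and 1450170_x_at, changed by 0.15, 0.23, 0.33 and -0.04 without a call. The ninth, 1451934_at, stayed between 2.93 and 4.48 in all lines and did not pass the filter.

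The remaining 3 H2-D1 probe sets separated the RAG-2-deficient lines from all other lines. On 1427651_x_at the RAG-2-deficient lines lay at 11.11, 11.18 and 11.25. Wild type lines lay at 6.14, 6.15 and 6.34, Artemis-deficient lines at 6.42, 6.53 and 6.28, Artemis- and ATM-deficient lines at 6.00 and 6.12, and IkB-DN lines at 5.45, 5.26 and 5.56. The RAG-2-deficient samples stood far above the other 11, which lay between 5.26 and 6.53. On 1452544_x_at the RAG-2-deficient lines lay at 11.39, 11.46 and 11.52 and the others between 5.86 and 7.89, and on 1425614_x_at they lay at 11.43, 11.52 and 11.58 and the others between 6.79 and 8.10.

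Against RAG-2-deficient lines these 3 probe sets were called lower in every other group, 12 calls of 12, and all 12 held under every alternative tried. The Artemis-deficient lines differed by -4.77 ± 0.12 (adjusted p = 1.12e-09, 27.3-fold) on 1427651_x_at, by -3.98 ± 0.17 (adjusted p = 1.07e-07, 15.8-fold) on 1425614_x_at and by -3.76 ± 0.22 (adjusted p = 2.7e-06, 13.6-fold) on 1452544_x_at. In wild type lines the folds were 31.3, 12.8 and 32.7, in Artemis- and ATM-deficient lines 34.8, 15.7 and 18.0, and in IkB-DN lines 54.0, 24.6 and 36.7, in the same order of probe sets. These comparisons share the RAG-2-deficient samples.

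**Figure D2:**
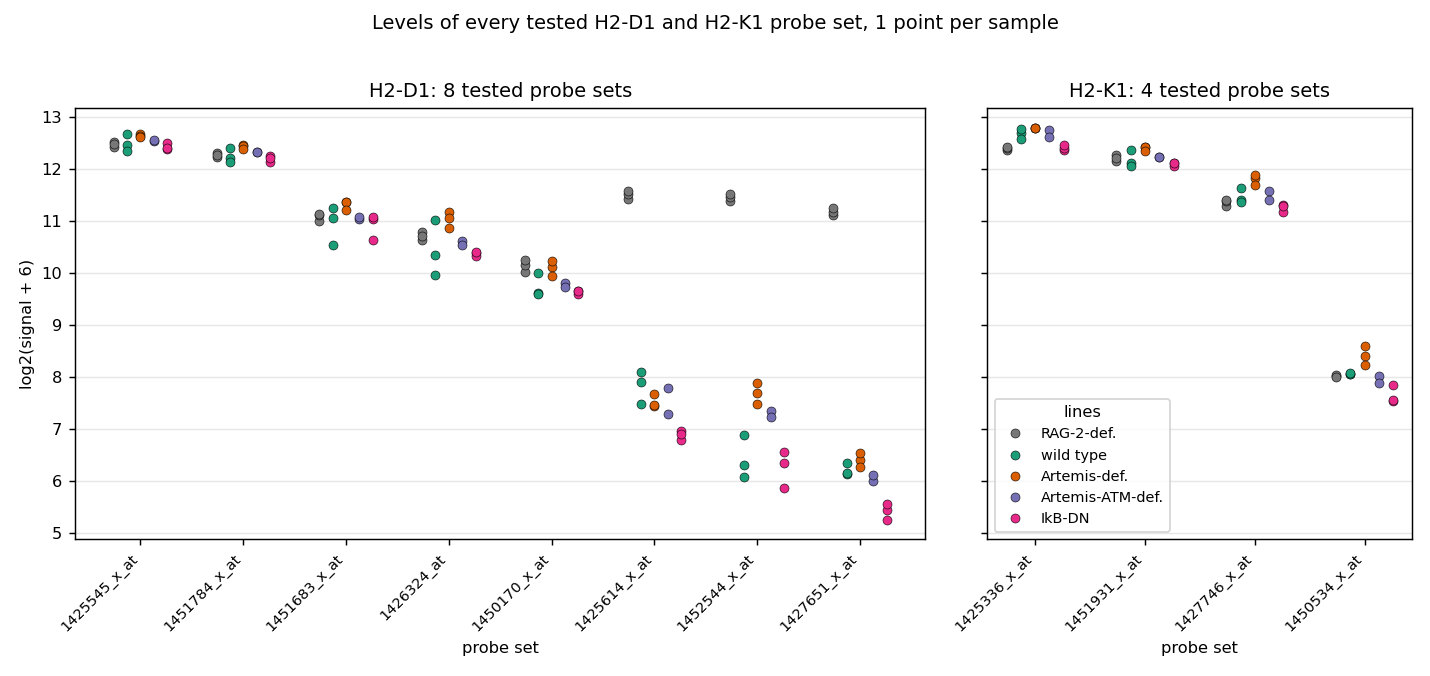
Level (log2 of signal plus 6, vertical axis) of each tested H2-D1 probe set (left) and H2-K1 probe set (right) in every line sample, with 1 point per sample and a colour per group. On 3 H2-D1 probe sets the RAG-2-deficient lines lay between 11.11 and 11.58 and all other lines between 5.26 and 8.10; on the other 5 and on all 4 of H2-K1 the RAG-2-deficient lines lay within or at the edge of the range of the other samples.

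This separation was rare on the array. Among 21008 tested probe sets with a value in every line sample, 7 had a gap of over 2 log2 units between all RAG-2-deficient and all other lines, and 5 of the 7 were higher in the RAG-2-deficient lines. These 3 H2-D1 probe sets ranked 1, 4 and 5 by gap, at 4.58, 3.50 and 3.33. A probe set that names both H2-Q5 and H2-K1, 1451593_at, ranked second, with a mean of 9.88 in RAG-2-deficient lines and 4.28 to 5.19 in the other groups, and Pdxdc1, a gene of chromosome 16, the third.

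In marrow the same 3 probe sets did not separate the cells that lack RAG-1 from the Artemis-deficient ones. In RAG-1-deficient marrow they read 6.75 and 7.0 (1425614_x_at), 5.55 and 6.52 (1427651_x_at), and 5.0 and 6.82 (1452544_x_at). In Artemis-deficient marrow they read 6.98 and 7.80, 5.88 and 6.49, and 6.73 and 7.15, so that the groups overlapped on all 3. The labels give no H2 haplotype or strain, so in every comparison with the RAG-2-deficient lines, those of H2-K1 and H2-M3 included, the H2 alleles, the RAG-2 genotype and whatever the letters Bcl stand for cannot be told apart. Haplotype and strain were not given for the other groups either, so H2 alleles and genotype cannot be told apart in comparisons among them. Whether these 3 probe sets bind some H2 alleles better than others was not tested. Set aside these 3, the calls among the remaining 20 member probe sets were 3 in Artemis-deficient, 0 in wild type, 0 in Artemis- and ATM-deficient and 2 in IkB-DN lines against RAG-2-deficient lines. The share of all tested probe sets called was 1.15%, 0.791%, 0.693% and 9.85% in the same order, so the 2 of 20 in IkB-DN lines lie near the share over the whole array.

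B2m, the light chain shared by all class I molecules, was the steadiest member. Its representative lay at 12.89, 12.86 and 12.84 in RAG-2-deficient, 12.88, 12.80 and 12.89 in wild type, 12.91, 12.92 and 12.98 in Artemis-deficient, 12.88 and 12.87 in Artemis- and ATM-deficient and 12.77, 12.73 and 12.74 in IkB-DN lines. The 3 Artemis-deficient samples were above, and the 3 IkB-DN samples below, all others, by small amounts. The change against RAG-2-deficient lines was 0.07 ± 0.05 in Artemis-deficient (adjusted p = 0.551) and -0.12 ± 0.05 in IkB-DN lines (adjusted p = 0.146). The second B2m probe set changed by 0.07 ± 0.05 and -0.08 ± 0.05, also with no call. With quantile normalization the representative was called lower in IkB-DN lines, at -0.19.

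H2-M3 showed another order. It lay at 10.36 and 10.01 in Artemis- and ATM-deficient lines, 9.80, 9.96 and 9.92 in RAG-2-deficient lines, 9.20, 8.89 and 9.84 in wild type, 9.01, 9.02 and 8.52 in Artemis-deficient lines, and 8.74, 8.73 and 8.75 in IkB-DN lines. Wild type replicate 3, the line with ATM in its title, lay apart from the other wild type lines and next to the RAG-2-deficient ones. Neighbouring groups in this order were not called apart: the changes were 0.29 ± 0.24 for Artemis- and ATM-deficient against RAG-2-deficient lines (adjusted p = 0.694), -0.58 ± 0.21 for wild type against RAG-2-deficient lines (0.265), -0.46 ± 0.21 for Artemis-deficient against wild type lines (0.402) and 0.11 ± 0.21 for Artemis-deficient against IkB-DN lines (0.835).

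In Artemis-deficient lines H2-M3 was called lower than in the RAG-2-deficient control, by -1.04 ± 0.21 (adjusted p = 0.0376, 2.06-fold), and no sample overlapped. This call was lost whichever of the 6 samples was left out, with adjusted p of 0.0647 to 0.0994, and with the IkB-DN samples as 1 (0.115). Changes ran from -1.13 to -0.88 over all alternatives. In IkB-DN lines it fell by 1.15 ± 0.21 (adjusted p = 0.00686, 2.22-fold), a call that held under all alternatives except the 3 IkB-DN samples counted as 1. Artemis-deficient lines lay below Artemis- and ATM-deficient lines by -1.34 ± 0.24 (limma adjusted p = 0.0394, 2.53-fold). That call too was lost whichever of the 5 samples was left out. It was also lost with quantile normalization, without the intensity trend, with the IkB-DN samples as 1 and with only these groups in the fit (adjusted p = 0.231).

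The peptide transporter and tapasin genes had no call in any line comparison. Tap1 lay at 8.72, 8.98 and 8.79 in RAG-2-deficient, 8.90, 9.15 and 9.10 in wild type, 9.23, 9.57 and 8.69 in Artemis-deficient, 9.33 and 9.16 in Artemis- and ATM-deficient and 9.0, 8.81 and 9.0 in IkB-DN lines. Its change in Artemis-deficient against RAG-2-deficient lines was 0.34 ± 0.18 (adjusted p = 0.462), with Artemis-deficient replicate 3 below all RAG-2-deficient samples. A second Tap1 probe set, 1448177_at, changed by -0.13 ± 0.27, and 2 more did not pass the filter. Tap2 lay at 8.65, 9.02 and 8.65 in RAG-2-deficient, 7.99, 8.26 and 8.42 in wild type, 8.32, 8.98 and 7.50 in Artemis-deficient, 8.62 and 8.81 in Artemis- and ATM-deficient and 8.13, 8.39 and 8.48 in IkB-DN lines. The Artemis-deficient lines spread from below all other lines to the level of the RAG-2-deficient ones, and the change against RAG-2-deficient lines was -0.51 ± 0.29 (adjusted p = 0.479). Tapbp lay at 9.35, 9.32 and 9.15 in RAG-2-deficient, 9.18, 9.29 and 8.86 in wild type, 9.52, 9.13 and 9.44 in Artemis-deficient, 9.12 and 8.90 in Artemis- and ATM-deficient and 9.09, 9.01 and 8.81 in IkB-DN lines. Its IkB-DN samples were all below the RAG-2-deficient and Artemis-deficient ones, by -0.30 ± 0.14 (adjusted p = 0.207) and 0.39 ± 0.14 as Artemis-deficient minus IkB-DN (adjusted p = 0.171).

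The immunoproteasome genes also had no call in the lines. Psmb8, whose product replaces the chymotrypsin-like subunit of the constitutive proteasome, lay at 10.00, 10.08 and 9.77 in RAG-2-deficient, 9.43, 9.70 and 9.83 in wild type, 9.44, 9.97 and 9.16 in Artemis-deficient, 10.37 and 9.89 in Artemis- and ATM-deficient and 9.91, 9.90 and 9.94 in IkB-DN lines. Artemis-deficient replicate 2 lay within the range of the RAG-2-deficient lines and the other 2 below it, and the change against RAG-2-deficient lines was -0.43 ± 0.19 (adjusted p = 0.353). The second Psmb8 probe set, 1444619_x_at, had its highest group mean in IkB-DN lines (7.61) and its lowest in wild type lines (6.69). On it every Artemis-deficient sample lay below every IkB-DN sample, with a change of -0.72 and no call. Psmb9, which replaces another catalytic subunit, lay at 9.68, 10.02 and 9.49 in RAG-2-deficient, 9.64, 9.59 and 9.35 in wild type, 9.48, 9.56 and 9.50 in Artemis-deficient, 10.23 and 9.51 in Artemis- and ATM-deficient and 9.32, 9.16 and 9.31 in IkB-DN lines. The IkB-DN samples were the low ones, below every RAG-2-deficient sample by -0.47 ± 0.18 (adjusted p = 0.119).

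The same control was set against wild type lines for breaks that can be joined, and against Artemis- and ATM-deficient lines for unrepaired breaks without ATM. In both comparisons the 3 H2-D1 probe sets described above were the only calls among 23, against 0.791% of all tested probe sets in wild type and 0.693% in Artemis- and ATM-deficient lines. H2-K1 differed by 0.28 ± 0.06 in wild type (adjusted p = 0.0571) and by 0.28 ± 0.07 in Artemis- and ATM-deficient lines (adjusted p = 0.093), with no overlap with the control in either; without wild type replicate 2 the first was called, at 0.33. Groups did not overlap for 8 of 23 probe sets in wild type, 2 higher and 6 lower (15.3% of all tested). In Artemis- and ATM-deficient lines it was 11 of 23, 5 higher and 6 lower (29.1%). Of the 20 left without the 3 H2-D1 probe sets, 2 lay higher and 3 lower without overlap in wild type lines. In Artemis- and ATM-deficient lines 5 of the 20 lay higher and 3 lower. T and NK cell markers differed between the lines. The log2 of the summed signal of 8 was 7.57 to 8.17 in RAG-2-deficient, 5.05 to 5.47 in wild type and 5.57 to 7.11 in Artemis-deficient lines. It was 4.35 to 5.22 in Artemis- and ATM-deficient lines and highest, at 8.80 to 9.29, in IkB-DN lines. Of the 8, only Klrd1 passed the filter, and it was called lower in wild type lines (-4.08 ± 0.78). It was not tested in Artemis- and ATM-deficient lines, which held too few values. Its part in the class I values was not tested.

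Breaks under blocked NF-kB were addressed by the IkB-DN lines, set against the same control. No member was higher by a call. Of 23 probe sets 5 were called, all lower, against 9.85% of all tested. The groups did not overlap for 13 of 23, all lower, against 37.8%. Without the 3 H2-D1 probe sets it was 10 of 20, all lower. The 2134 calls behind the 9.85% fell to between 837 and 1445 when 1 sample was left out and to 24 of 21448 with the IkB-DN samples counted as 1. Beside H2-M3 and the 3 H2-D1 probe sets, 1450170_x_at of H2-D1 fell by 0.52 ± 0.12 (adjusted p = 0.0204), from 10.03, 10.16 and 10.25 to 9.65, 9.59 and 9.65. This call remained only without RAG-2-deficient replicate 1 when samples were left out in turn. H2-K1 differed by 0.01 ± 0.06 (adjusted p = 0.923). Myeloid markers moved with this comparison. Of 8 on the array 4 were tested and 3 were higher in IkB-DN lines, Itgam by 4.33 ± 0.76, Lyz2 by 3.22 ± 0.44 and Elane by 0.95 ± 0.25. The log2 of the summed signal of the 8 was 9.31 to 9.59 in IkB-DN against 6.70 to 7.41 in RAG-2-deficient and 7.11 to 8.46 in Artemis-deficient lines. It was 6.97 to 8.50 in wild type and 7.84 to 9.80 in Artemis- and ATM-deficient lines, so high sums were not particular to IkB-DN lines. The pre-B cell marker Igll1 was higher in IkB-DN than in RAG-2-deficient lines by 2.02 ± 0.48. The part of these in the class I values was not tested.

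Artemis-deficient lines were compared directly with IkB-DN lines for the share of blocked NF-kB. All 11 probe sets of H2-K1, H2-D1 and B2m outside the 3 described above were higher in every Artemis-deficient sample, by 0.15 to 0.77 (median 0.38). Calls were made for 3 of these 11, all of H2-K1: 1425336_x_at by 0.38 ± 0.06 (adjusted p = 0.0104, 1.30-fold), 1427746_x_at by 0.55 ± 0.09 (adjusted p = 0.0118) and 1450534_x_at by 0.77 ± 0.12 (adjusted p = 0.011, 1.70-fold). On the last the Artemis-deficient lines read 8.40, 8.60 and 8.24 and the IkB-DN lines 7.54, 7.56 and 7.85. With 1427651_x_at (0.99 ± 0.12) and 1452544_x_at (1.44 ± 0.22) of H2-D1, 5 of 23 member probe sets were called, all higher, against 2.02% of all tested. Both H2-D1 probe sets are among the 3 that set the RAG-2-deficient lines apart, and H2 alleles were not given for these groups. The groups did not overlap for 18 of 23, 17 higher, against 28.8%. None of the 5 calls remained with the IkB-DN samples counted as 1. Without Artemis-deficient replicate 1 or IkB-DN replicate 2 only 2 calls remained, and 3 without IkB-DN replicate 1. Lyz2 differed by -3.40 ± 0.44 as Artemis-deficient minus IkB-DN, and Klrd1, a marker of NK cells, by -3.97 ± 0.78; their part was not tested.

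Artemis-deficient lines were compared with Artemis- and ATM-deficient lines for the part of ATM. The same 11 probe sets were all higher in the Artemis-deficient lines, by 0.02 to 0.46 (median 0.17), 10 of them without overlap, and 0 were called by limma. Of all 23, only H2-M3 was called (0.281% of all tested), and 7 had an unadjusted p below 0.05, against 9.69% of all tested. The groups did not overlap for 14 of 23, 13 higher, against 26% of all tested. Of the 11 pre-B cell markers 0 were called by limma and 4 had an unadjusted p below 0.05, with a median change of -0.29. Summed myeloid signals were 7.11 to 8.46 in Artemis-deficient and 7.84 to 9.80 in Artemis- and ATM-deficient lines. The part of these markers in the class I values was not tested. Against wild type lines, which test unrepaired against joined breaks, the 11 were again all higher in Artemis-deficient lines, by 0.05 to 0.59 (median 0.22), 4 of them without overlap, and none was called. The only call of 23 was 1452544_x_at of H2-D1, at 7.70, 7.89 and 7.49 in Artemis-deficient against 6.07, 6.31 and 6.89 in wild type lines (1.27 ± 0.22, adjusted p = 0.0263, 2.41-fold), against 0.505% of all tested. It was lost without Artemis-deficient replicate 1 or 2 or wild type replicate 1 or 2. Of all 23 probe sets, 5 did not overlap, all higher (14.8%). Wild type replicate 3 lay above the other wild type lines on most class I probe sets, and without it 1426324_at (0.88, adjusted p = 0.0128) and 1451931_x_at (0.31, adjusted p = 0.0476) were called as well.

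**Figure D3:**
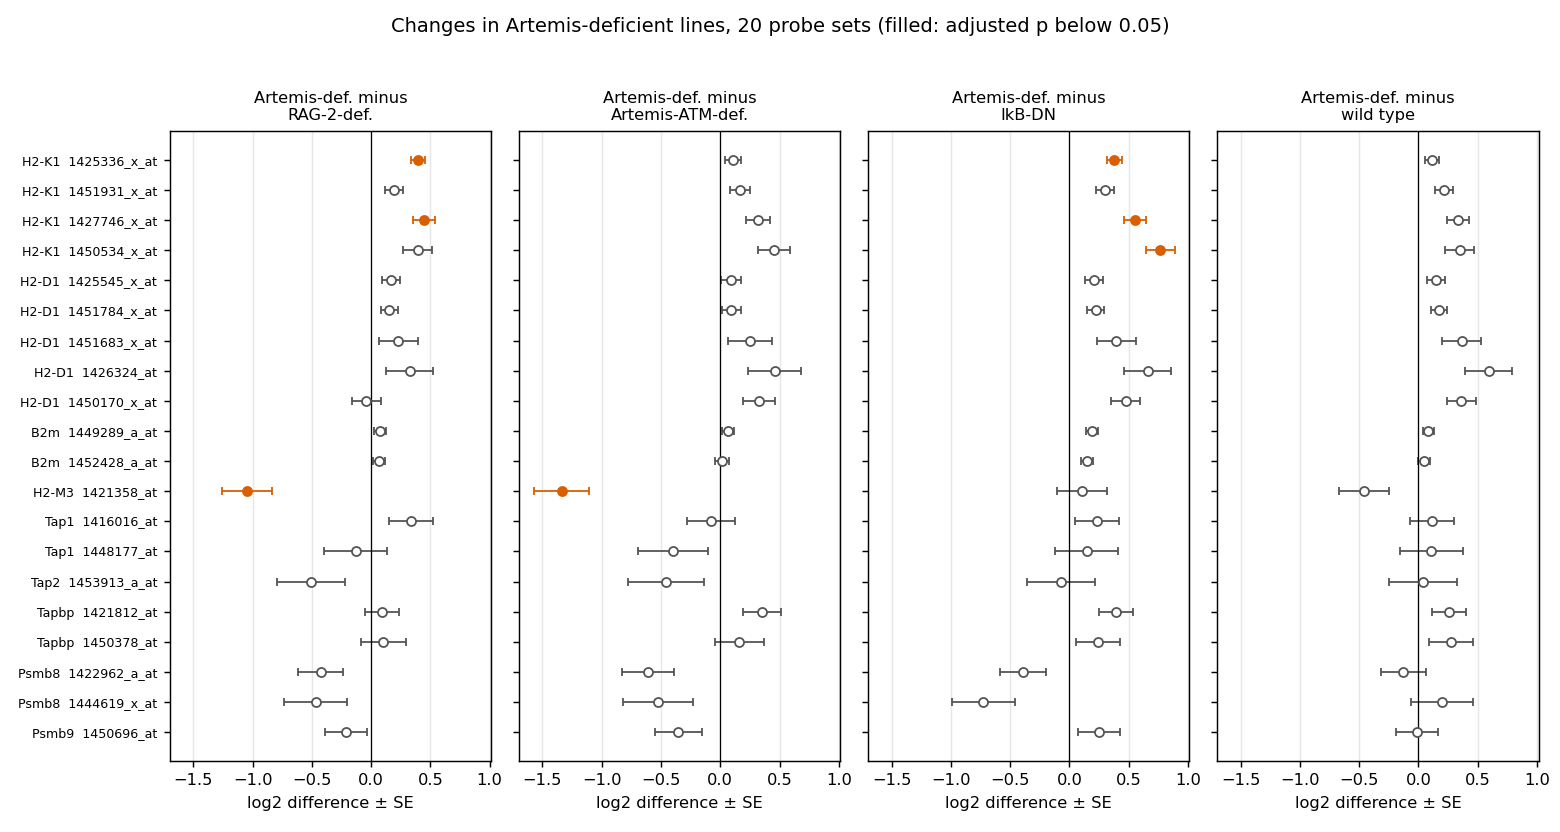
Difference of Artemis-deficient lines from 4 other groups (log2, horizontal axis, with bars of 1 SE) for 20 tested member probe sets, without the 3 H2-D1 probe sets that follow the RAG-2-deficient lines; filled points have an adjusted p below 0.05. The H2-K1, H2-D1 and B2m points lie to the right of 0 in all panels except 1450170_x_at against RAG-2-deficient lines (-0.04), and those of Psmb8 and Tap2 lie on both sides.

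Across the groups, Artemis-deficient lines had the highest and IkB-DN lines the lowest group mean for 9 of these 11 probe sets, and for 10 of all 23 tested member probe sets. That order, noticed in these data, was found for 4.74% of the 21008 tested probe sets with values in all lines. The 11 overlap in target sequence and come from 3 genes, and the comparisons share the Artemis-deficient samples, so they are no separate observations. For the 8 probe sets of the transporter, tapasin and immunoproteasome genes the changes in Artemis-deficient against RAG-2-deficient lines ran from -0.51 to 0.34, with 3 of 8 positive and the groups overlapping for all.

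Correlations between the representatives over the 14 line samples differed from pair to pair. H2-K1, H2-D1 and B2m correlated with each other at r = 0.73 (H2-K1 and H2-D1), 0.70 (H2-K1 and B2m) and 0.74 (H2-D1 and B2m). Tap2 and Psmb8 correlated at 0.77, H2-M3 and Psmb9 at 0.64 and H2-M3 and Tap2 at 0.62, while H2-K1 and H2-M3 stood at -0.03 and H2-K1 and Psmb8 at -0.37. H2-K1 and Tap1 correlated at 0.54, B2m and Tapbp at 0.53, H2-D1 and Tap1 at 0.40 and B2m and Psmb9 at 0.39. Among the loading and processing genes, Tapbp stood at -0.43 with Psmb8, -0.27 with Tap2 and -0.15 with Tap1. These are descriptions over samples that fall into 5 groups and share arrays. Among 9437 genes, those most like H2-K1 over the 14 samples were Sh3rf1 (r = 0.89), Pdrg1, Zfp58, Camk1g and Pisd-ps3 (0.86). For B2m they were Mak16 (0.87), Lsg1, Pno1, 2610037D02Rik and Fastkd5 (0.83), for Tap1 Pcgf5 (0.89), Dhodh, Chchd4, Rb1cc1 and Cby1 (0.82), and for Psmb9 Cuedc1 (0.87), Lrrc8c, Rgs2, Snx1 and Ezh2 (0.84). No member stood among the 5 genes most like any of these 4.

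Few other genes of the pathway were called in the lines. Of 10 loading chaperones and trimming factors, all tested, limma called 0 in any of the 7 line comparisons; 0 to 2 of the 10 had an unadjusted p below 0.05. Calr, which encodes the chaperone calreticulin, stood between 0.66 and 0.87 above the RAG-2-deficient control in the other 4 groups of lines (adjusted p = 0.0591 to 0.155). Of 9 tested proteasome genes, 2 fell in IkB-DN lines against the RAG-2-deficient control, the core subunit Psma3 (-0.34 ± 0.10) and the assembly factor Pomp (-0.69 ± 0.19), and 0 were called in the other line comparisons, where 0 to 5 of 9 had an unadjusted p below 0.05. Psma3 had a second probe set at the same change of -0.34 without a call (adjusted p = 0.271). Among 7 tested class I and class I-like genes outside the members, a list that also holds H2-Ke6, a dehydrogenase gene, limma called 0 in any line comparison. The nearest was H2-Q5, higher in Artemis-deficient than IkB-DN lines by 2.48 (adjusted p = 0.0764), and 0 to 3 of the 7 had an unadjusted p below 0.05.

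Of 14 regulators of class I transcription only Nlrc5, the class I transactivator, was called in a line comparison, lower in IkB-DN than in RAG-2-deficient lines by -0.97 ± 0.21 (adjusted p = 0.0153). In Artemis-deficient lines it stood at -0.66 ± 0.21 against the same control, with no call (limma adjusted p = 0.181). The part of Nlrc5 in the class I values was not tested. Of 9 tested interferon-induced genes only Xaf1 was called against RAG-2-deficient lines, by 2.69 in Artemis-deficient, 3.51 in Artemis- and ATM-deficient and 3.34 in IkB-DN lines, and by 1.95 in Artemis-deficient over wild type lines. Its second probe set went the other way, by -2.13, -2.12, -2.18 and -1.32 in these comparisons, called in the first and the third, so Xaf1 has no settled direction. At an unadjusted p below 0.05 stood 4 of the 9 in Artemis-deficient against RAG-2-deficient lines (median change 0.26), against 13.7% of all tested. Against wild type lines 4 of the 9 stood there too (median change 0.03), against 12.3% of all tested.

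The bone marrow comparison addresses the same question in pre-B cells taken from mice, with RAG-1-deficient cells as the control. Every member was higher on average in the Artemis-deficient marrow, and none by a call. All 22 tested probe sets had positive changes, from 0.10 to 1.03 with a median of 0.35, against a median of -0.01 over all tested, of which 49.4% were positive. The groups did not overlap for 15 of 22, all higher, against 48.9% of all tested. At an adjusted p below 0.05 limma called 0 of 22, against 2.51% of all tested, and 5 had an unadjusted p below 0.05, against 16.8%. The 489 calls over all probe sets that make up the 2.51% became 1308 and 1380 without Artemis-deficient replicate 1 and 2, and 0 and 83 without RAG-1-deficient replicate 1 and 2.

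The gene with the smallest p was Tapbp, whose representative read 10.22 and 10.62 in RAG-1-deficient and 11.11 and 11.25 in Artemis-deficient marrow (0.76 ± 0.18, adjusted p = 0.0861). Its second probe set differed by 0.74 ± 0.22. Psmb8 read 10.25 and 10.50 against 10.78 and 11.16 (0.59 ± 0.19, adjusted p = 0.167) and Tap1 read 9.38 and 9.59 against 9.88 and 10.12 (0.52 ± 0.18, adjusted p = 0.195). In Tapbp, Psmb8 and Tap1 both Artemis-deficient samples lay above both controls. H2-K1 read 12.59 and 12.73 against 12.95 and 12.96 (0.29 ± 0.15), H2-D1 read 12.67 and 12.80 against 12.85 and 13.06 (0.22 ± 0.16) and B2m read 13.08 and 13.07 against 13.27 and 13.21 (0.16 ± 0.15). For H2-K1, H2-D1 and B2m the groups did not overlap either, with adjusted p between 0.401 and 0.644. H2-M3 (9.33 and 9.46 against 9.43 and 10.00), Tap2 (8.17 and 8.63 against 8.53 and 9.02) and Psmb9 (10.05 and 10.26 against 10.23 and 10.68) overlapped.

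**Figure D4:**
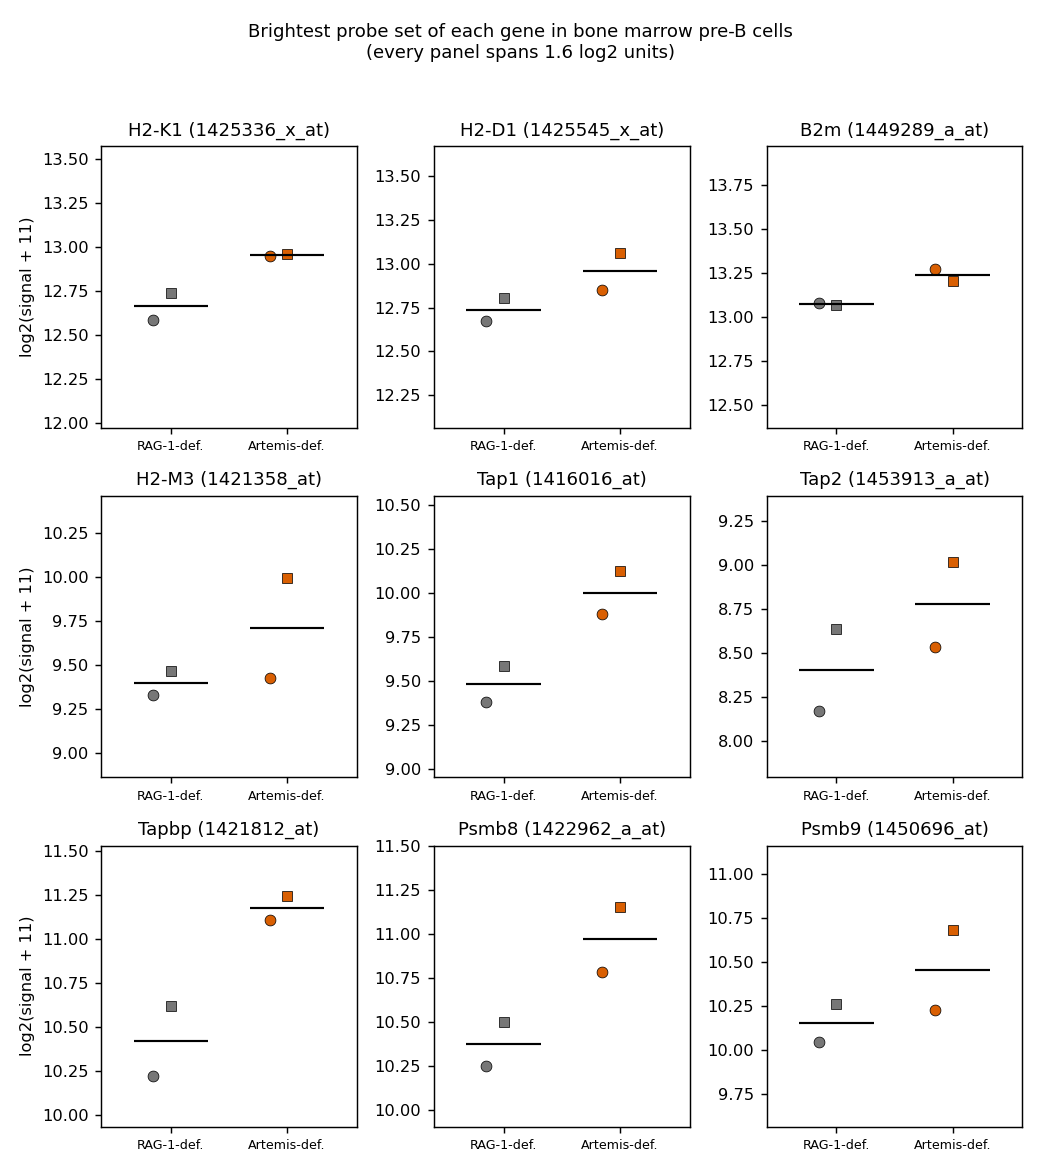
Level (log2 of signal plus 11, vertical axis) of the representative probe set of each gene in the 2 RAG-1-deficient and 2 Artemis-deficient marrow samples; symbols tell replicates apart, bars are group means, and all panels span 1.6 log2 units. Group means were higher in Artemis-deficient marrow for all 9 genes, with overlap for H2-M3, Tap2 and Psmb9.

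Markers of other cells moved with the marrow groups. Of 6 dendritic cell markers on the array 4 were tested and 3 were called higher in Artemis-deficient marrow, Siglech by 2.58 ± 0.38, Ccr9 by 2.42 ± 0.44 and Itgax by 1.04 ± 0.20, and the log2 of their summed signal was 12.36 to 12.73 against 9.82 to 10.94. Of 8 myeloid markers 1 was called, Lyz2, higher by 1.05 ± 0.16 (sums 15.48 to 15.67 against 14.75 to 15.27), and of T and NK cell markers 0 of 5 (sums 12.66 to 12.77 against 11.61 to 11.96). Of 11 pre-B cell markers 2 were lower, Rag1 by -2.0 ± 0.22 and Vpreb1 by -1.33 ± 0.23 (sums 13.71 to 14.28 against 14.89 to 15.04), and 10 of the 11 had an unadjusted p below 0.05, with a median change of -1.1. Rag1 is the gene deficient in the control, so it is no neutral marker in this comparison, and it also enters the sums. Of 3 tested erythroid markers 0 were called (sums 10.66 to 11.11 against 11.60 to 11.64), and 4 of 5 T and NK cell and 3 of 3 erythroid markers had an unadjusted p below 0.05. In the lines no dendritic or erythroid marker passed the filter. The interferon-induced genes Bst2 (2.51 ± 0.39) and Mx1 (1.71 ± 0.25) were called higher, 2 of 18 tested, as was 1 of 14 regulators, Irf8 (1.41 ± 0.19), which is known to be abundant in dendritic cells. At an unadjusted p below 0.05 stood 8 of the 18 interferon-induced genes, whose median change was 0.75, and 6 of the 14 regulators. Loading chaperones, proteasome partners and other class I genes had 0 calls by limma, with 3 of 10, 2 of 9 and 3 of 6 at an unadjusted p below 0.05. The part of other cell types in the class I values of the marrow was not tested.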

How the data were processed

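RNA of mouse pre-B cells was hybridised to 20 Affymetrix mouse arrays, read with GeneChip Operating Software 1.2.0.037 per the labels. Summary method, background subtraction and scaling were not given in the sources used here. Values as deposited by the authors are log10 signals; the base was inferred from the values. Of the table entries, 14.7% were empty and were left so. Signals were recovered, raised by the 25th percentile of their set (6 in lines, 11 in marrow) and taken to log2. A probe set was kept where at least 2 samples reached their array's median, which left 21921 in lines and 19520 in marrow. Technical arrays were averaged, leaving 14 line and 4 marrow samples. Two-sided tests of differences used limma 3.58.1 under R 4.3.3 (lmFit and trended eBayes), with all 5 line groups in 1 fit (9 residual and 3.06 prior degrees of freedom) and the marrow in another (2 and 5.40). Each comparison needed at least 2 values per group. The code was tested on simulated data.

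Probe sets were named from the platform annotation: 34294 named 1 gene, 916 several and 8990 none. All probe sets of the 9 members are accounted for; other pathway genes were counted by their brightest probe set, and at most 4 called ones per list are named. The members and the gene lists were chosen with earlier results of these data known. The motif GAANNGAAA and the counts without 3 H2-D1 probe sets were added after seeing the data. Figures were drawn with matplotlib 3.10.9. Alternatives tried were a pseudocount of 1, no filter, quantile normalization, no intensity trend, only the compared groups in the fit, IkB-DN samples as 1, the first technical array only, the mean of a gene's probe sets, and leaving out each sample in turn.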

Additional observations from a re-analysis of the deposited data

Results flagged for a closer look

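In 5 member probe sets the Artemis-deficient samples lay all on one side of the mean of their RAG-deficient control in the lines and all on the other side in the marrow; the difference between lines and marrow was not tested. H2-M3 was -1.04 in lines and 0.32 in marrow, Psmb9 -0.22 and 0.30, and the second Psmb8 probe set, 1444619_x_at, -0.47 and 0.77. For H2-D1 the values were -3.98 and 0.51 on 1425614_x_at and -3.76 and 1.03 on 1452544_x_at, which are probe sets that follow the RAG-2-deficient lines. The marrow values were not called, and of the line values those of H2-M3 and H2-D1 were.

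A signal outside the members' own measurements was found on 1424948_x_at, which names both H2-K1 and H2-D1 and was therefore left out. In Artemis-deficient lines it stood above the RAG-2-deficient control by 0.44 ± 0.08 (limma adjusted p = 0.0231) and above IkB-DN lines by 0.43 ± 0.08 (adjusted p = 0.0190). Samples far from their group were not looked for by rule, because no group holds the 4 samples such a check needs.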

How the results depend on the processing

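Of 24 calls of member probe sets, 12 held under every alternative tried, all of them on the 3 H2-D1 probe sets against RAG-2-deficient lines. Without these 3 probe sets, a choice made after seeing the data, the counts of called members against RAG-2-deficient lines were 3 for Artemis-deficient, 2 for IkB-DN and 0 for both wild type and Artemis- and ATM-deficient lines; for Artemis-deficient lines they were 3 against IkB-DN lines and 0 against wild type. Without the intensity trend 3 were called in Artemis-deficient against RAG-2-deficient lines and 0 against Artemis- and ATM-deficient lines, where quantile normalization also left 0. With the fit restricted to the compared groups, Artemis-deficient lines gave 9 calls against IkB-DN lines, 0 against wild type and 0 against Artemis- and ATM-deficient lines. With IkB-DN samples as 1, they gave 0 in each of these 3 comparisons, and IkB-DN against RAG-2-deficient lines gave 3. Leaving out each sample in turn gave 4 to 5 calls in Artemis-deficient, 3 to 4 in wild type, 3 to 3 in Artemis- and ATM-deficient and 4 to 5 in IkB-DN lines against RAG-2-deficient lines, and in Artemis-deficient lines 0 to 0 against Artemis- and ATM-deficient, 2 to 6 against IkB-DN and 0 to 3 against wild type lines; in marrow it gave 0 to 0. With the mean of the gene's probe sets, H2-D1 turned from a slight rise to -1.46 in Artemis-deficient, -1.81 in wild type and -1.71 in Artemis- and ATM-deficient against RAG-2-deficient lines, because that mean includes the 3 probe sets. No value called as reported changed sign under any alternative. No paired analysis was possible because the digits in the sample titles are parts of line or animal names that nothing ties together across groups, and the replicate numbers used here only name samples. Over all probe sets, leaving out 1 sample moved the calls from 439 to between 59 and 1064 in Artemis-deficient against IkB-DN lines. Groups of 2 or 3 samples limit what could be called, and signals of H2-K1 and H2-D1 cannot be fully separated on this array.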
